A study of Homo sapiens with 6 samples.

Results

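Whole stage 6 cultures from 2 separate differentiations of 1 human embryonic stem cell line, H1, were compared gene by gene. H1 differentiation 2 was set against H1 differentiation 1, each with a live and a processed array, which made 4 of the 6 arrays of the series. The other arrays came from differentiation 3, a culture of the embryonic stem cell line HUES8 that was likewise split into a live and a processed array. A gene was described when 2 or more of the 4 H1 arrays gave it an intensity of 40 or higher. That rule kept 12913 of the 31410 genes in the table.

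The cells of both H1 cultures were established embryonic stem cells, kept on Matrigel in mTeSR and carried through a stepwise pancreatic protocol to its last stage, which contains insulin-expressing cells. Live samples were extracted fresh and unsorted with a column kit. Processed samples were fixed with paraformaldehyde, permeabilized, stained and sorted without gating anything out, and their RNA was then recovered with a kit for fixed tissue. No genotype or treatment separates the differentiations in the labels, and each is 1 culture. The live and processed arrays are therefore repeat preparations of 1 culture and not independent cultures, and no test of differentiation 2 against differentiation 1 was possible.

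Directed differentiation leads stem cells through endoderm and foregut to pancreatic progenitors and then to hormone cells. Progenitors are marked by PDX1, endocrine precursors by NEUROG3, and hormone cells by insulin, glucagon or somatostatin together with granins. The same signals can also yield liver, gut, mesenchyme, amnion-like or neural cells, so a culture is a mixture whose make-up can differ between runs. In such bulk samples fewer cells of a type and less RNA per cell cannot be told apart.

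The labelled cell type was checked against its defining genes. INS, which encodes insulin, had intensities of 2627 and 1898 on the live and processed arrays of differentiation 2, against 4386 and 4133 in differentiation 1. The granin CHGA had 9761 and 7128 in differentiation 2, against 16612 and 15272 in differentiation 1. Both genes were among the bright ones in each culture. NKX6-1, a transcription factor of β cells and their progenitors, stayed under 40 on all 4 arrays, with 5.65 and 9.07 in differentiation 2 and 34.8 and 26.3 in differentiation 1. POU5F1 and NANOG, which define pluripotent cells, also stayed under 40. Other genes of pluripotent cells did not, and 11 of 18 listed ones were described. LIN28A had 2404 and 1986 in differentiation 2 and 2135 and 1756 in differentiation 1. ACTB had 7064 and 7714 in differentiation 2 and 7985 and 9026 in differentiation 1, and GAPDH had 6504 and 6425 in differentiation 2 and 10102 and 9644 in differentiation 1, a log2 difference of -0.61 ± 0.03 (SD, n = 2 preparations).

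The arrays of both cultures were of similar brightness. The median intensity of all genes was 27.4 and 23.2 on the live and processed arrays of differentiation 2, and 24.4 and 23.0 on those of differentiation 1. Genes at 40 or more numbered 12698 and 12359 in differentiation 2, and 12526 and 12489 in differentiation 1. Over the described genes, the squared Pearson correlation was 0.904 between the live arrays of both differentiations and 0.906 between the processed ones. Live and processed arrays of 1 culture gave 0.960 in differentiation 2 and 0.975 in differentiation 1. Genes, over which these correlations were taken, are not independent of each other.

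Each gene has a live difference and a processed difference, both as differentiation 2 minus differentiation 1 on the log2(intensity + 20) scale. The error given is the SD of these values over the 2 preparations. A gene was called when it was at least 2-fold apart in the same direction in both preparations. By this rule 148 of 12913 genes were higher in differentiation 2, which is 1.15% of the genes described, and 185 were lower, which is 1.43%. Among them 29 were at least 4-fold apart in the measured mean of both preparations, 18 higher and 11 lower. Some of these, such as HOXC4, were under 40 on both arrays of a culture. The median difference over all described genes was close to 0, at -0.04.

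Agreement between the preparations was partial. Of the 775 genes 2-fold apart on the live arrays, 43.0% were also 2-fold apart on the processed arrays, and 43.7% of the 762 from the processed arrays were so on the live ones. The median gap between the live and the processed difference of a gene was 0.28, and 95% of genes had a gap of 0.86 or less. Only 2 genes were 2-fold apart in opposite directions. The genes nearest the threshold on the inside were SELM (1.11 live, 1.0002 processed) and DPEP1 (-1.83, -1.0008). The nearest ones outside were AHSG (-0.9993, -1.17) and ASS1 (1.14, 0.9991).

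**Figure D1:**
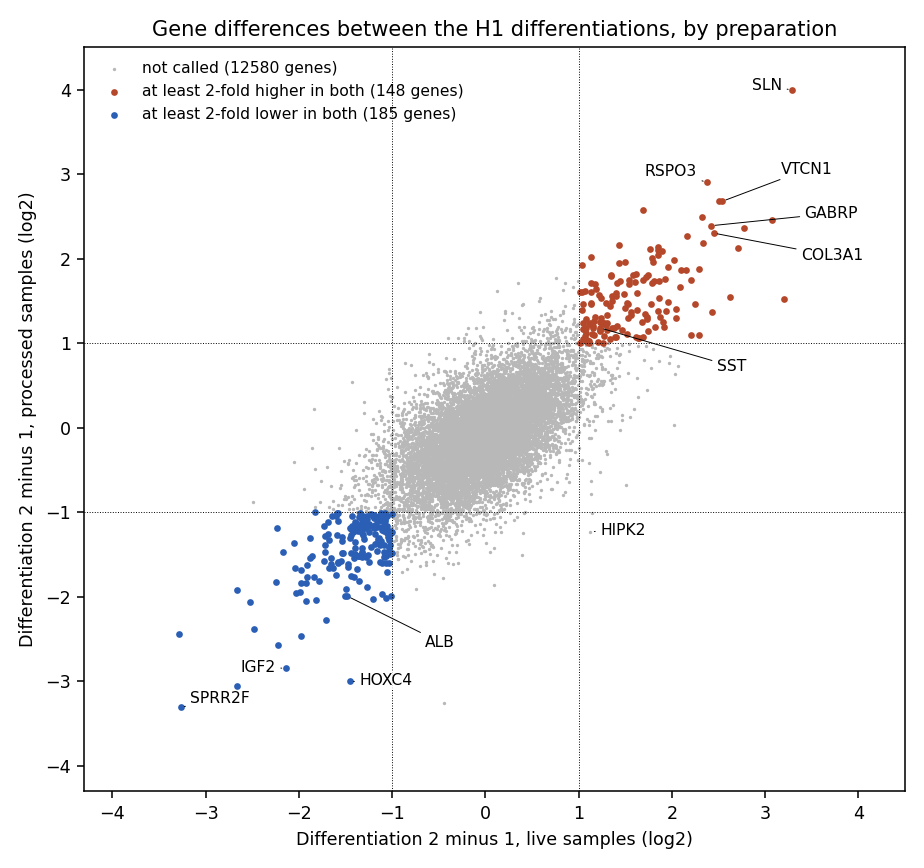
Each point is 1 of the 12913 described genes, with the log2 difference of differentiation 2 minus differentiation 1 on the live arrays (x axis) and on the processed arrays (y axis). Dotted lines mark 2-fold, and 148 genes lie past them at the upper right and 185 at the lower left, and HIPK2 is 1 of 2 genes past them in opposite directions.

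Some calls rest on 1 measurable culture. Of the 148 genes called higher, 57 were under an intensity of 40 on both arrays of differentiation 1, and of the 185 called lower, 52 were under 40 on both arrays of differentiation 2. Such genes entered through the culture where they were bright, and in the lists their differences are counted as measured. For them only a bound on the fold is given, taken with each dim array at 40. With 40 required on all 4 arrays, 78 genes were higher and 119 lower. Of the genes named by rule, GALR2, GAST, CCK, NPY, SCGN, MNX1, PAX4, CPA1, PRSS2, A1CF, GAP43, GDF15, MX1 and IFIT1 lost their call with an offset of 50 in place of 20, and SCGN lost it after quantile normalization too. Gene lists of cell types and pathways are summarised by their called members and their median difference, beside the figures for all genes.

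VTCN1, GABRP and IGFBP3, genes active in amnion among other tissues, stood well above differentiation 1 in differentiation 2. Amnion is the thin membrane around the embryo, and cells that resemble it arise readily from stem cells under BMP. VTCN1, an immune checkpoint ligand of the B7 family, had 977 and 960.1 in differentiation 2, against 151 and 133 in differentiation 1, a log2 difference of 2.61 ± 0.10. GABRP, the pi subunit of the GABA-A receptor, had 1294 and 1295 in differentiation 2 and 225 and 231 in differentiation 1, which gave 2.41 ± 0.02. IGFBP3, a carrier of insulin-like growth factors, had 1053 and 934 in differentiation 2 and 360.5 and 336 in differentiation 1, or 1.46 ± 0.05. For all of these genes both arrays of differentiation 2 lay above both arrays of differentiation 1. The rule for a call largely ensures this.

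These were the 3 called genes among 9 described members of the amnion and trophoblast list. The list had a median of 0.98, and 8 of the 9 were higher in both preparations, as were 4166 of all 12913 genes. The transcription factor HAND1 gave 0.56 without a call, at 1068 and 868 in differentiation 2 and 799 and 525 in differentiation 1. TFAP2A, another transcription factor, gave 0.58. WNT6, a WNT ligand, had 65.8 and 83.6 in differentiation 2 and stayed under 40 in differentiation 1, at 28.5 and 27.2, without a call. The placental hormone chains CGA and CGB stayed under 40. The members' intensities added up to 5625 and 4959 on the live and processed arrays of differentiation 2, against 2168 and 1839.9 in differentiation 1.

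Genes of stratified epithelium pointed both ways. The table carries TP63, the master regulator of stratified epithelium, under its present symbol and under the older symbol TP73L. The TP73L row had 317 and 330.4 in differentiation 2 and 72.7 and 84.8 in differentiation 1, a difference of 1.80. The TP63 row gave 1.06 and missed the call, with 1.41 live and 0.70 processed. COL17A1, a collagen of the epithelial anchoring complex, had 313 and 305 in differentiation 2 and 46.0 and 51.4 in differentiation 1, a difference of 2.26 ± 0.11. SPRR2F, a precursor of the cornified envelope, was the lowest of the called genes, at 29.7 and 23.7 in differentiation 2 and 459 and 412 in differentiation 1, which is at least 7.58-fold lower. The 7 described keratins, grouped by symbol after the values had been seen, had a median of -0.65 and no call. That group is not limited to stratified epithelium and takes in KRT19, a ductal keratin.

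Some collagens and proteins that bind them were called higher in differentiation 2. COL3A1, the chain of type III collagen, had 1368 and 1272 in differentiation 2, against 235 and 242 in differentiation 1, a difference of 2.37 ± 0.10. COL1A2, the second chain of type I collagen, had 818 and 872 in differentiation 2 and 234 and 239 in differentiation 1, or 1.75 ± 0.05. DCN, the collagen-binding proteoglycan decorin, had 240.3 and 227 in differentiation 2 and 60.6 and 53.3 in differentiation 1, or 1.72 ± 0.04. All 4 arrays separated without overlap for each of them, which the rule for a call largely ensures.

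Of 27 described members of the mesenchyme and matrix list 8 were called higher and 0 lower, and its median was 0.44. The other called members were TGFBI (1.77), SPARC (1.53), COL5A1 (1.45), COL5A2 (1.24) and POSTN, which was at least 1.44-fold higher, all secreted matrix proteins. Summed over the list, the intensities were 17817 and 16566 on the live and processed arrays of differentiation 2, against 12721 and 12959 in differentiation 1. In both preparations 17 members were higher and 5 lower, against 4166 and 5033 of all 12913 genes. The contractile and cytoskeletal members held no call. Only 1.15% of all described genes were called higher, so the lack of a call in a few members says little. VIM, the mesenchymal filament protein, gave 0.32, ACTA2, smooth muscle actin, gave 0.44, and TAGLN, a marker of smooth muscle, gave -0.19. COL1A1, the partner chain of COL1A2, gave -0.16, and the cartilage collagen COL2A1 gave -0.88. PDGFRA and FBLN1 were also lower in both preparations, at -0.44 and -0.29 without a call.

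Over the whole collagen family, grouped after the values had been seen, 6 of 27 described chains were called higher and 0 lower. The ones outside the matrix list were COL17A1 and COL11A1, which was at least 3.07-fold higher. Further matrix and secreted genes among the calls were MXRA5 (2.08), the serine protease HTRA1 (634 and 528 in differentiation 2 and 128 and 131 in differentiation 1, 2.00), the thrombospondin THBS2 (at least 1.80-fold), and COLEC12, a scavenger receptor with a collagen-like stalk (879 and 873 in differentiation 2 and 181 and 165 in differentiation 1, 2.21). In the blood and endothelial list 3 of 18 members were described and none was called. They were the endothelial receptor TEK (0.86), the embryonic globin HBE1 (0.90) and the clotting factor carrier VWF (0.24), all higher in both preparations. The defining genes PECAM1, CDH5, KDR and PTPRC stayed under 40.

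WNT amplifiers were among the most unequal genes. R-spondins are secreted proteins that keep WNT receptors at the cell surface. RSPO3 had 673 and 662 in differentiation 2, against 114 and 71.1 in differentiation 1, a difference of 2.64 ± 0.37. RSPO1 had 201 and 272 in differentiation 2 and stayed under 40 in differentiation 1, at 19.1 and 25.3, which is at least 4.24-fold higher. The RSPO3 difference was several times its spread between preparations, which does not measure the spread between cultures.

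The WNT list had 3 of 27 described genes called higher and 1 lower, with a median of 0.08. NKD1, a feedback inhibitor that WNT induces, had 577 and 543 in differentiation 2 and 252 and 165 in differentiation 1 (1.37). AXIN2, another such target, had 2090.2 and 2032 in differentiation 2 and 1196 and 797 in differentiation 1 and gave 1.06, with 0.79 live and 1.33 processed, so it missed the call. FRZB, a secreted WNT antagonist, was lower, with 662 and 638 in differentiation 2 and 1527 and 1684 in differentiation 1 (-1.28). The receptor FZD2 gave -0.88 and the ligand WNT5A 0.61 without calls. WNT3A, a ligand that was not on the list, had 1241 and 913 in differentiation 2 and 472 and 391 in differentiation 1 and was called at 1.27.

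A pair of BMP target genes was called higher as well. MSX1, a homeobox gene that BMP induces, had 6176 and 4706 in differentiation 2, against 2125 and 1695 in differentiation 1, a difference of 1.496 ± 0.05. Its relative MSX2 had 326 and 267 in differentiation 2 and 126 and 102 in differentiation 1, or 1.24 ± 0.01. These were the 2 calls among 21 described members of the BMP and TGF-β list, whose median was 0.32. The ligand BMP7 gave 0.81 and BMP5 gave 1.30 without a call, and the response genes ID1, ID2, ID3 and SMAD7 gave -0.07, -0.05, -0.64 and -0.01.

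Several of the genes above are also known from the dorsal neural tube, whose roof plate secretes WNT and BMP ligands. LMX1A, a homeobox gene that specifies the roof plate, had 216 and 209 in differentiation 2, against 41.9 and 47.5 in differentiation 1, a difference of 1.84 ± 0.12. ZIC2, a zinc finger factor (1.11), and OLIG3 (1.41) were called as well, and so were ZIC4 and GDF10, at least 1.73-fold and 1.59-fold higher. A list of 23 such genes, drawn up after these values had been seen, had 13 described members, of which 11 were called. It was chosen for that pattern and supports nothing beyond naming them. WNT1, the classic dorsal ligand, gave 0.54 without a call, and PAX3 and PAX7 were not described.

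Neuronal genes pointed both ways. GAP43, a growth cone protein, had 179 and 157 in differentiation 2 and 76.1 and 55.2 in differentiation 1 (1.14). SOX10, the neural crest and glial factor, was lower, with 44.0 and 30.0 in differentiation 2 and 140.1 and 118 in differentiation 1 (-1.39). TUBB3, a neuronal tubulin, gave -1.08 without a call and STMN2, a neuronal stathmin, gave -0.20. On the other side the neurofilament gene NEFM gave 1.03, the sensory neuron factor POU4F1 0.92 and the microtubule protein gene MAP2 0.60, none of them called. The list of 19 described genes had 1 call each way and a median of 0.00, with 8 higher and 6 lower in both preparations. DNER, a transmembrane ligand of the neuronal surface, was not on the list and was called higher, at 333 and 307 in differentiation 2 and 50.5 and 37.9 in differentiation 1 (2.41).

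**Figure D2:**
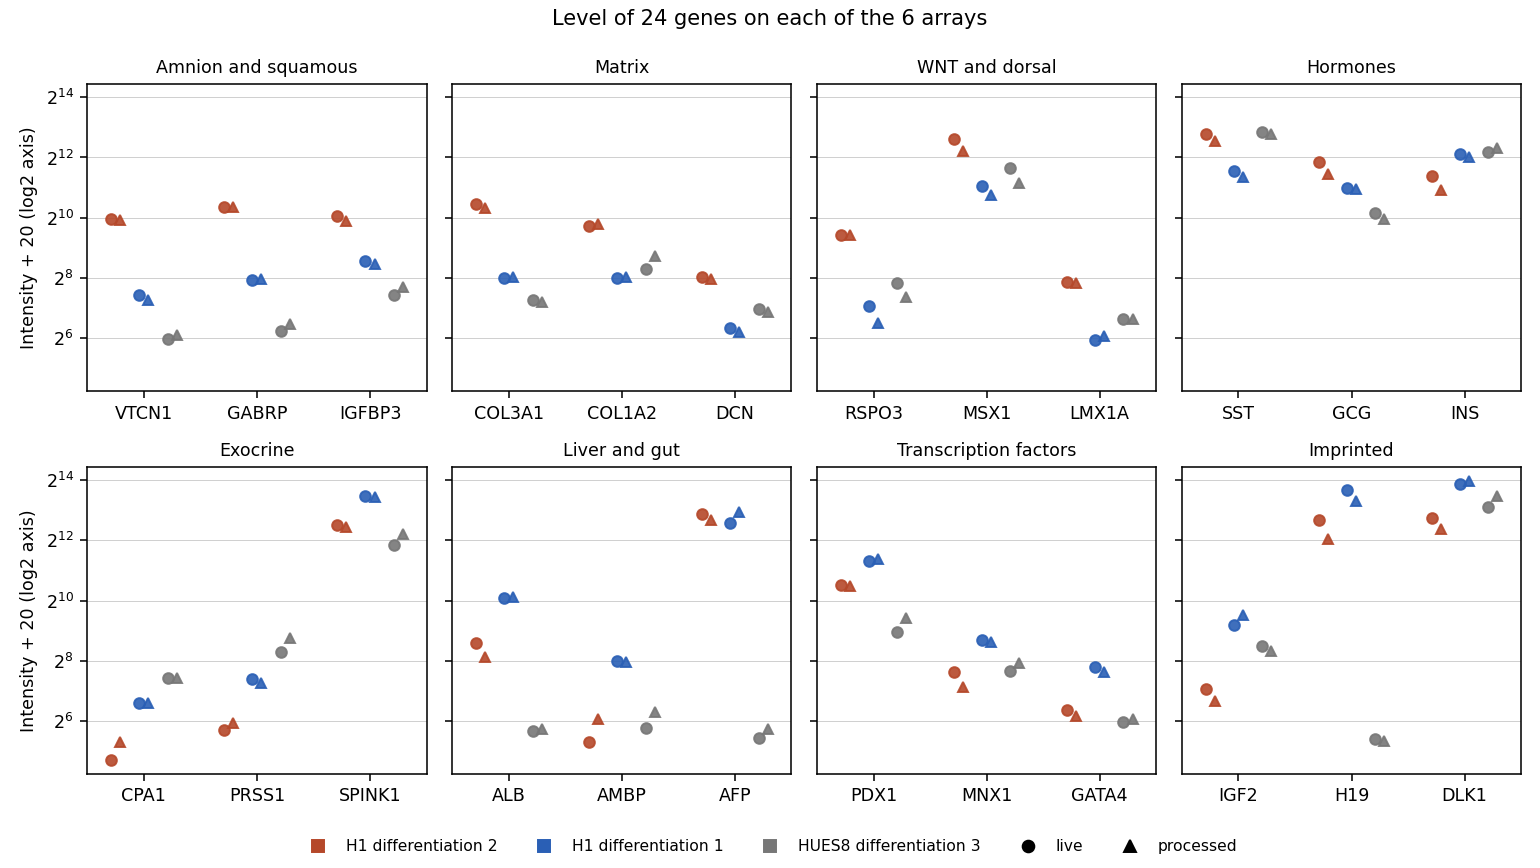
Intensity plus 20 on a log2 axis for 24 genes in 8 panels, with 1 point per array (circles live, triangles processed) and colours for differentiation 2, differentiation 1 and HUES8 differentiation 3. In the matrix panel both arrays of differentiation 2 lie above all others, while in the exocrine panel CPA1 and PRSS1 are lowest there.

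The hormone genes differed in direction. SST, which encodes somatostatin, had 6974 and 5929 in differentiation 2, against 2963 and 2602 in differentiation 1, a difference of 1.21 ± 0.03 and a fold of 2.31. GCG, which encodes glucagon, had 3634 and 2808 in differentiation 2 and 2029.7 and 1980.0 in differentiation 1, or 0.67 ± 0.24. INS gave -0.92 ± 0.27, with -0.73 live and -1.11 processed. Of these hormone genes only SST passed 2-fold in both preparations. Its arrays did not overlap between the cultures, and neither did those of GCG and INS. The share of all described genes without such overlap was not counted, so this adds nothing to the differences.

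Several minor hormones were dim in at least 1 culture. GAST, the gene of gastrin, had 4.62 and 21.3 in differentiation 2 and 96.0 and 73.7 in differentiation 1, at least 1.74-fold lower. CCK, the gene of cholecystokinin, had 28.6 and 35.1 in differentiation 2 and 95.8 and 103 in differentiation 1, at least 1.99-fold lower. NPY, the gene of neuropeptide Y, had 84.7 and 78.8 in differentiation 2 and 27.1 and 23.0 in differentiation 1, at least 1.70-fold higher. GHRL, the gene of ghrelin, was brighter, at 680.2 and 639 in differentiation 2 and 1006 and 879 in differentiation 1, and gave -0.50 without a call. The list of 10 described hormones had 2 calls each way and a median of 0.00.

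Calls among genes of the secretory granule and its release were all lower. PCSK1N, an inhibitor of prohormone convertase 1, had 308 and 377 in differentiation 2, against 930.2 and 951 in differentiation 1, a difference of -1.41 ± 0.17. ABCC8, the sulfonylurea receptor subunit of the β-cell potassium channel, had 164 and 221 in differentiation 2 and 432 and 498 in differentiation 1, or -1.20 ± 0.14. SCGN, the calcium sensor secretagogin, had 273 and 285 in differentiation 2 and 695 and 613 in differentiation 1, or -1.17 ± 0.17. Of 20 described members of that list 3 were called lower and 0 higher, and the median was -0.38. In both preparations 13 were lower and 2 higher, against 5033 and 4166 of all 12913 genes. CHGA gave -0.93 and the amidating enzyme PAM gave 0.09.

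Endocrine transcription factors were split. LMX1A, described above, was among the higher ones. MNX1, a β-cell factor, was lower, with 178 and 121 in differentiation 2 and 389 and 372 in differentiation 1, or -1.26 ± 0.30. The array lists the same gene again under its older symbol HLXB9, which gave -0.9987 live and -1.02 processed and fell just short of the call. PAX4, another β-lineage factor, had 49.6 and 58.7 in differentiation 2 and 138 and 155 in differentiation 1 (-1.17).

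NEUROG3, the factor that starts endocrine commitment, had 24.5 and 27.6 in differentiation 2 and 88.0 and 45.5 in differentiation 1, under 40 on both arrays of differentiation 2 and not called. NKX2-2 gave -1.08 and ISL1 gave 0.63, both endocrine factors without a call. The list of 15 described factors had 2 called higher, MNX1 and PAX4 called lower and a median of -0.28.

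Most progenitor factors had lower values in differentiation 2, few of them called. PDX1 had 1452 and 1415 in differentiation 2, against 2542 and 2658 in differentiation 1, a difference of -0.85 ± 0.07 that did not reach 2-fold. GATA4, a factor of the foregut and its derivatives, had 61.8 and 51.1 in differentiation 2 and 203 and 178 in differentiation 1, or -1.46 ± 0.02. Of 19 described members 13 were lower in both preparations, 1 was higher in both, 2 were called lower and 0 higher. Over all genes 5033 of 12913 were lower in both preparations and 4166 higher in both. The median of the list was -0.39. Most described members of the amnion and matrix lists were higher in the same culture, and their part in these lower values was not tested. NKX6-2, a homeobox relative of NKX6-1 outside that list, had 13.9 and 21.6 in differentiation 2 and 309 and 205 in differentiation 1, at least 4.54-fold lower.

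Several digestive enzymes of the exocrine pancreas were called lower in differentiation 2. PRSS1, the gene of cationic trypsinogen, had 32.2 and 40.8 in differentiation 2 and 147 and 133 in differentiation 1, or -1.50 ± 0.24. CPA1, the gene of carboxypeptidase A1, was under 40 in differentiation 2, at 6.14 and 19.6, against 76.3 and 77.8 in differentiation 1, at least 1.62-fold lower. PRSS2, whose sequence is close to that of PRSS1 so that probes may not tell them apart, was at least 2.05-fold lower. PRSS3, another trypsinogen gene, gave -0.73 without a call. The lipase gene CEL gave 0.60 live and -0.73 processed.

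The trypsin inhibitor SPINK1 had 5754 and 5572 in differentiation 2 and 11376 and 11046 in differentiation 1 and gave -0.98, close to 2-fold without a call. The ductal keratin KRT19 gave 0.00. The chloride channel gene CFTR and SPP1, the gene of osteopontin, both active in ducts, gave 0.78 and 1.18 without a call. AQP12A, an aquaporin of acinar cells, was not on the list and was at least 2.17-fold lower. The list of 13 described genes had 4 called lower, 0 higher and a median of -0.73. That median depended on the filter, and with no filter on intensity it was -0.077.

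Genes of fetal liver formed the other block of lower calls. ALB, the gene of albumin, had 366 and 259 in differentiation 2, against 1059 and 1090.4 in differentiation 1, a difference of -1.74 ± 0.36. AMBP, the precursor of α1-microglobulin and bikunin, had 19.9 and 46.5 in differentiation 2 and 233 and 231 in differentiation 1, or -2.29 ± 0.53. TF, the gene of transferrin, had 37.3 and 49.0 in differentiation 2 and 195 and 214 in differentiation 1, or -1.84 ± 0.10. None of these arrays overlapped between the cultures, which the rule for a call largely ensures.

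AFP was not lower beside albumin. This fetal serum protein had 7564 and 6559 in differentiation 2 and 6123 and 7813 in differentiation 1, a difference of 0.03 ± 0.39, and its arrays overlapped. Of 23 described genes 5 were called lower and 0 higher, and the median was -0.60. In both preparations 16 were lower and 5 higher, against 5033 and 4166 of all 12913 genes. Among the higher ones CPS1 gave 0.94, ITIH2 0.49 and RBP4 0.48, none of them called. The other called members were A1CF, an RNA-editing cofactor (-1.18), and VTN, the gene of vitronectin (-1.07). APOA1 had 2327 and 2381 in differentiation 2 and 5905 and 4648 in differentiation 1 and gave -1.15 without a call. The serpins, grouped after the values had been seen, had 5 of 12 described members called lower and 0 higher. SERPINF2, the gene of α2-antiplasmin, had 135 and 180.0 in differentiation 2 and 614 and 752 in differentiation 1 (-1.99), and SERPINA5 had 871 and 487 in differentiation 2 and 2041 and 2039.7 in differentiation 1 (-1.62).

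Gut genes were less uniform. The intestinal list had 7 described members and no call, with TFF3, a mucosal trefoil peptide, at -0.91 and the intestinal regulator CDX2 at 0.28. AGR2, a disulfide isomerase of mucus-secreting cells, had 50.8 and 25.5 in differentiation 2, against 181 and 161 in differentiation 1 (-1.75). It was the 1 call among 2 described stomach genes, beside the gastric claudin CLDN18, which had 9.92 and 16.0 in differentiation 2, under 40, and 42.0 and 50.5 in differentiation 1 without a call. SLC26A3, an intestinal chloride exchanger that was not listed, had 0.22 and -1.37 in differentiation 2 and 52.0 and 47.7 in differentiation 1 and was at least 1.16-fold lower.

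**Figure D3:**
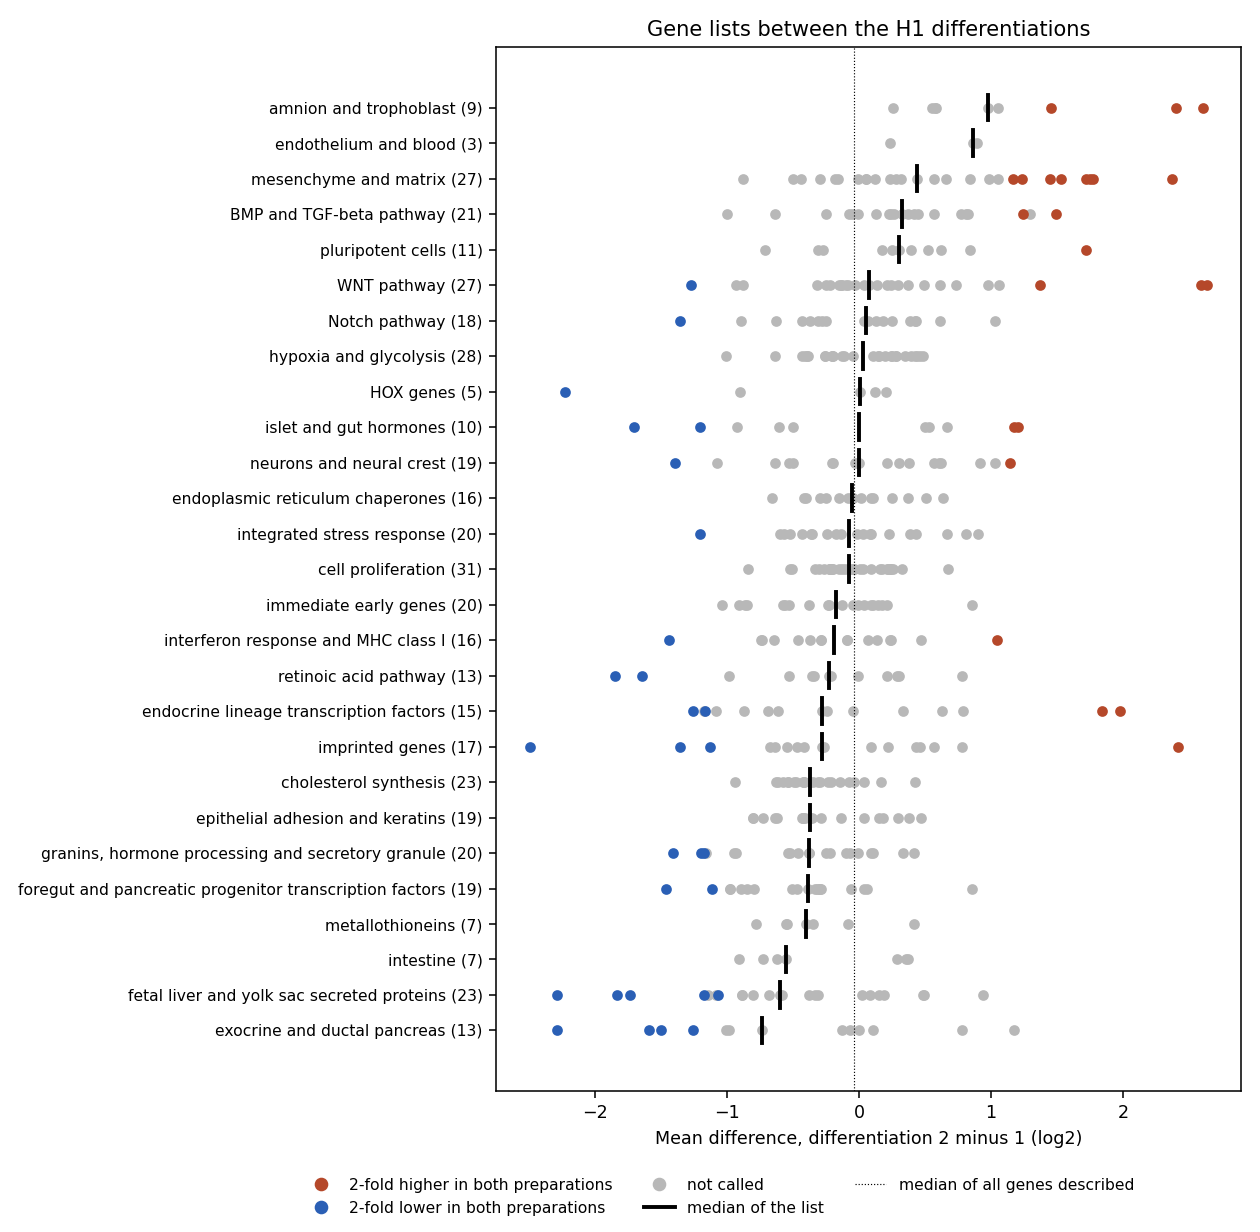
Mean log2 difference (differentiation 2 minus differentiation 1, x axis) of the described members of each list with at least 3 of them, 1 point per gene and the number of genes in brackets. The median of the amnion list is 0.98 and that of the exocrine list -0.73, against -0.04 for all genes (dotted line).

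Imprinted genes, which are transcribed from 1 parental allele, held some of the largest differences in both directions. IGF2, a fetal growth factor, had 112 and 81.2 in differentiation 2, against 565 and 707 in differentiation 1, a difference of -2.49 ± 0.50. H19, its neighbouring noncoding RNA, had 6468 and 4253 in differentiation 2 and 13094 and 10094 in differentiation 1, or -1.13 ± 0.16. DLK1, a Notch-like ligand of another imprinted cluster, had 6843 and 5296 in differentiation 2 and 14973 and 15931 in differentiation 1, or -1.36 ± 0.32. The calls of H19 and DLK1 were lost after quantile normalization, where their smaller difference was -0.76 for H19 and -0.99 for DLK1.

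PEG3, a zinc finger gene expressed from the paternal allele, went the other way. It had 277 and 193 in differentiation 2 and stayed under 40 in differentiation 1, at 25.5 and 28.9, which is at least 4.19-fold higher. Of 17 described imprinted genes 1 was called higher and 3 lower, with a median of -0.28. MEG3, the noncoding RNA beside DLK1, gave -0.47, and GNAS, a G protein gene, gave -0.28.

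The retinoic acid list held lower calls alone. DHRS3, an enzyme that reduces retinal to retinol, had 236 and 295 in differentiation 2 and 1037 and 971 in differentiation 1, a difference of -1.85 ± 0.28. Of 13 described genes of the list 2 were called lower and 0 higher. The binding proteins CRABP1 and CRABP2 gave 0.21 and -0.01, and the degrading enzyme CYP26A1 gave 0.78. The receptor RARB was under 40 in differentiation 2, at 20.6 and 27.7, against 65.8 and 69.0 in differentiation 1, without a call. The median was -0.23.

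HOXC4, a homeobox gene of axial patterning, had 35.5 and 9.81 in differentiation 2 and 132 and 219 in differentiation 1. It was under 40 on both arrays of differentiation 2 and at least 3.18-fold lower. It was the 1 call among 5 described HOX genes of the list. HOXA5 was lower in both preparations without a call, at -0.90, and HOXB5 gave 0.008. HOXA2 gave 0.20 and HOXB2 gave 0.12.

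The highest of the called genes was SLN, which encodes sarcolipin, a regulator of the muscle calcium pump. It had 1068 and 1069 in differentiation 2, against 91.5 and 48.3 in differentiation 1, a difference of 3.64 ± 0.50 and a fold of 12.5. The other highest genes were MMRN1, a platelet and endothelial glycoprotein (2.13), CYP46A1, a cholesterol hydroxylase of neurons (1.99), and the ribosomal pseudogene RPL31P10 (at least 2.53-fold). A pseudogene probe can also bind its parent transcript.

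Among the lowest genes were C18orf20, now a noncoding RNA entry (70.8 and 45.2 in differentiation 2 and 555 and 523 in differentiation 1, -2.86), and SLC15A3, a lysosomal peptide transporter (64.1 and 46.0 in differentiation 2 and 373 and 370.2 in differentiation 1, -2.39). Another 3 genes were dim on both arrays of differentiation 2 and had only a bound. The lactate transporter SLC16A8 was at least 1.86-fold lower, the membrane protein gene TMEM171 at least 1.26-fold and C1orf188, now RNF207, at least 1.56-fold. The galanin receptor GALR2 had 1.00 and 3.53 in differentiation 2 and 74.9 and 45.3 in differentiation 1, at least 1.31-fold lower.

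Stress, growth and epithelial lists held few or no calls. Over all described genes 1.15% were called higher and 1.43% lower, so lists this short can hold none at those shares. No gene of the lists for proliferation (31 described), endoplasmic reticulum chaperones (16), immediate early genes (20), hypoxia and glycolysis (28), cholesterol synthesis (23), metallothioneins (7) or epithelial adhesion and keratins (19) was called. Their medians ran from -0.40 for metallothioneins to 0.03 for hypoxia and glycolysis. Of the 23 cholesterol genes 15 were lower in both preparations and 2 higher. For the 19 epithelial genes these counts were 12 and 4, and for the 7 metallothioneins 6 and 1. Over all 12913 genes they were 5033 and 4166. The immediate early median was 0.09 live and -0.51 processed, and on the processed arrays alone 4 of its genes passed 2-fold lower. In the integrated stress response GDF15, a stress cytokine, was the 1 call, at 34.6 and 38.8 in differentiation 2 and 120.0 and 102 in differentiation 1, at least 2.18-fold lower. In the interferon list the antiviral genes IFIT1 and MX1 were called in opposite directions, IFIT1 at least 1.53-fold higher and MX1 lower, at 13.0 and 13.4 in differentiation 2 and 75.7 and 64.4 in differentiation 1. The Notch list had DLK1 as its 1 call, and of 11 described pluripotency genes 1 was called higher.

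The HUES8 culture gave the level of each called gene in another line. For 106 of the 148 genes called higher the HUES8 level lay between the H1 differentiations, for 24 below both and for 18 above both. For the 185 genes called lower it lay between in 103, below both in 55 and above both in 27. HUES8 was nearer to differentiation 2 than to differentiation 1 for 70 of the 148 and for 107 of the 185. Called genes were chosen for a wide gap between the H1 cultures, in which another culture easily falls. The same shares over all described genes were not counted. Line and run cannot be told apart there, since HUES8 is a single culture.

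Members of 1 gene group differed in where HUES8 stood. On its live and processed arrays WNT3A had 1746 and 1819, above differentiation 2, whereas LMX1A had 79.0 and 78.8, nearer to differentiation 1. The amnion genes VTCN1 and GABRP had 42.1 and 48.3 and 55.8 and 69.0 there, below both H1 cultures. SST had 7339 and 7013 and INS had 4612 and 5069 in HUES8, both nearer to the H1 culture where the gene was bright. Among the lower genes ALB had 30.8 and 32.9 and H19 had 22.1 and 20.4 in HUES8, below both H1 cultures, while PRSS1 had 294 and 418, above both.

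Calls were also counted by brightness and by chromosome. The described genes were split by mean level into quartiles. From the dimmest to the brightest, genes called higher numbered 59, 39, 29 and 21, and genes called lower 59, 38, 43 and 45. The median processed difference was -0.21 in the brightest quartile and -0.02 in the dimmest, while the live medians were -0.02 and -0.01. The 80 described genes of ribosomal proteins, none of them called, had medians of -0.06 live and -0.30 processed.

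By chromosome, the lowest median was that of chromosome 19, at -0.24 over 752 genes (-0.19 live, -0.28 processed). Chromosomes 22 and 16 followed with -0.15 and -0.13, and the highest medians were 0.10 on chromosomes 13 and 5 and 0.08 on chromosome 4. On chromosome 19 the 137 zinc finger genes with ZNF symbols had a median of -0.01, and the other 615 genes -0.29. Its median also ran lower with brightness, at -0.12, -0.17, -0.29 and -0.34 from the dimmest to the brightest quartile of all genes. No chromosome median approached the 2-fold of a call, and the part of gene content in them was not tested.

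**Figure D4:**
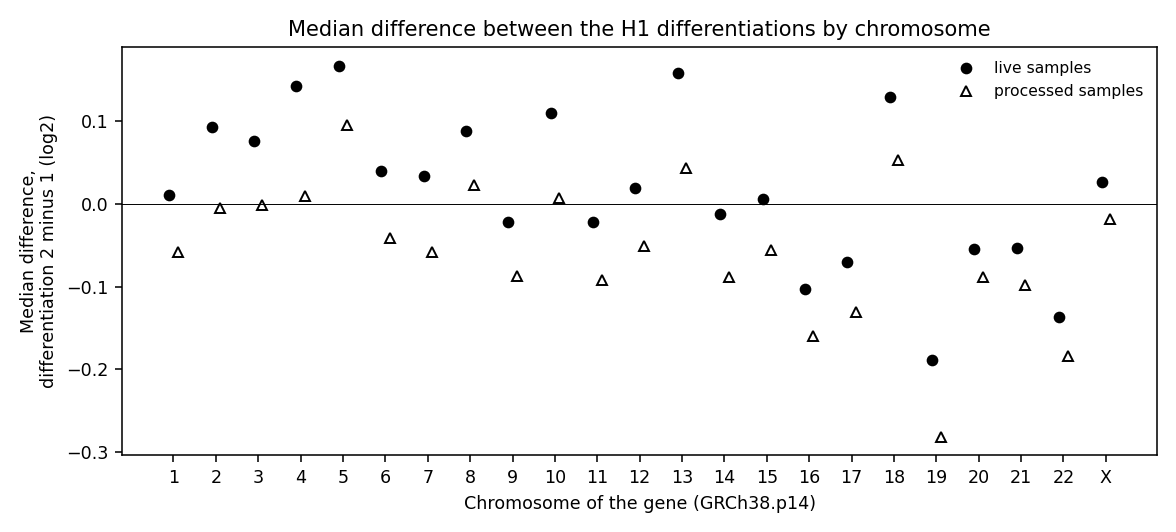
Median log2 difference (differentiation 2 minus differentiation 1, y axis) of the described genes on each autosome and X, for the live arrays (filled circles) and the processed arrays (open triangles). Chromosome 19 is lowest in both preparations, at -0.19 live and -0.28 processed.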

How the data were processed

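RNA from 6 samples was hybridised to Illumina HT-12 expression arrays, 1 per sample. The authors subtracted background and applied rank-invariant normalization in GenomeStudio, and deposited intensity values on a linear scale, 1 row per gene symbol. On the 4 H1 arrays 5.42% of values were below 0, so no offset had been added. A second table was not used, because its 12 columns of per-sample values (6 of signal, 6 of detection p) match no sample label. The array's genome build is not given in the sources used here.

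Values below 0 were set to 0, 20 was added and log2 was taken, which understates differences of dim genes. Differences are means over both preparations with their SD, computed in Python 3.11.15 (pandas 2.3.3, numpy 2.4.6). No test was run, since each differentiation is 1 culture. The spread between cultures was therefore not measured, and the number of arrays limits the precision of each difference. The calling step was tested on simulated data with set folds and random noise. These data held no spread between cultures, so that test says nothing about how far separate runs differ.

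Named genes were the 15 highest and 15 lowest called genes with a RefSeq symbol, fixed islet and reference genes, the leading called and brightest uncalled members of each list, and the genes most opposed between preparations. Other named genes were chosen after their values were seen. Some genes that these rules name are not reported here. Members, lists and rules were chosen with earlier results of these data known. Of the described symbols 9343 were current in RefSeq (GRCh38.p14), 1650 were older names and 1920 did not match. Alternatives were other offsets, scalings, filters and folds, and leaving out a preparation.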

Additional observations from a re-analysis of the deposited data

Results flagged for a closer look

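HIPK2, a protein kinase gene, differed between the preparations. It was 1.13 higher on the log2 scale in differentiation 2 on the live arrays (1083 in differentiation 2 and 486 in differentiation 1), and its processed difference was -1.23 (619.7 in differentiation 2 and 1478 in differentiation 1). MOBKL1A, a Hippo pathway adaptor now named MOB1B, gave 1.14 live (216 in differentiation 2 and 86.8 in differentiation 1) and -1.01 processed (96.5 in differentiation 2 and 214 in differentiation 1). These differences between preparations were not tested. The next genes in this respect were FOSB, an immediate early gene (1.13 live, -0.78 processed), RAD54L2 (0.83, -0.79) and LOC652388 (-0.86, 0.77).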

How the results depend on the processing

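Against 148 genes higher and 185 lower, an offset of 50 gave 82 and 95, a minimum of 40 on all 4 arrays 78 and 119, a limit of 1.5-fold 557 and 799, and a limit of 3-fold 37 and 28. With 1 preparation alone, 275 to 335 genes were higher and 440 to 487 lower. With a common median the counts were 154 and 179, and after quantile normalization 152 and 158. The median of the hormone list, 0.00, was -0.034 with the offset of 50, 0.033 after quantile normalization, 0.53 with 40 on all 4 arrays or 100 on at least 2, -0.34 with no filter and -0.0047 to 0.031 in 1 preparation alone. That of the progenitor factors was -0.60 to -0.34 in 1 preparation alone. The exocrine median was -0.56 with the offset of 50, -0.67 after quantile normalization, -0.13 with 40 on all 4 arrays, -0.077 with no filter, -0.55 with 100 on at least 2 arrays and -0.73 to -0.65 in 1 preparation. The fetal liver median was -0.48 after quantile normalization and -0.68 with 100 on at least 2 arrays. The mesenchyme median was 0.41 with the offset of 50, 0.45 with a common median, 0.59 after quantile normalization, 0.50 with 40 on all 4 arrays, 0.38 with no filter and 0.47 in either preparation. The amnion median was 0.68 with the offset of 50, 0.47 with no filter and 0.71 to 0.93 in 1 preparation. The cause of these shifts was not tested. The medians of 11 lists turned their sign under some alternative. Beside the hormones, the WNT median was -0.028 with 40 on all 4 arrays or 100 on at least 2, the neuronal one 0.0051 to 0.21, the hypoxia one down to -0.077, the Notch one -0.11 with 100 on at least 2 arrays, and the immediate early one 0.091 live, and those of HOX, stomach, endothelium and blood, chaperone and stress response genes turned too. No called named gene turned its sign (0 of 557 alternative values), but only the common median or quantile normalization could have turned it. Offsets, filters and leaving out a preparation cannot turn the sign of a called gene. Leaving aside the other fold limits and genes that a filter removed, 17 of the 66 called named genes lost the call under some alternative. These were mostly dim ones under the offset of 50, such as GALR2, GAST, CCK and NPY. No paired analysis was possible because no test was run, each differentiation being 1 culture, though every difference already sets live with live and processed with processed.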

Other observations

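Some genes outside the lists, chosen after their values had been seen, encode peptides, receptors and guidance cues of nerve cells. OPRK1, the kappa opioid receptor, had 227 and 152 on the live and processed arrays of differentiation 2, against 45.2 and 55.3 in differentiation 1. PDYN, the precursor of its dynorphin ligands, had 79.3 and 72.3 in differentiation 2, against 22.0 and 17.6 in differentiation 1, at least 1.60-fold higher. SLIT2, an axon guidance protein, had 1006 and 587 in differentiation 2, against 203 and 263 in differentiation 1, and EDN3, an endothelin that acts on neural crest, had 165 and 168 in differentiation 2, against 43.7 and 36.0 in differentiation 1.

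EPAS1, ANXA1 and CD44, also chosen after their values had been seen, were called higher too. EPAS1, the hypoxia-inducible factor 2α, had 783 and 658 in differentiation 2, against 168 and 166 in differentiation 1, while the hypoxia and glycolysis list had no call. ANXA1, an annexin of epithelia, had 671 and 625 in differentiation 2, against 218 and 178 in differentiation 1. CD44, the hyaluronan receptor, was at least 1.52-fold higher, as it stayed under 40 in differentiation 1.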
